A study of Mus musculus with 12 samples.

Results

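Open chromatin inside exons and untranslated regions (UTRs), the ends of a transcript that are not translated, was followed under an inhibitor of the histone demethylase LSD1. The regions are the rows of the authors' deposited table for LSD1i against Vehicle that its annotation places in an exon, a 5' UTR or a 3' UTR. They number 916 of the 21247 regions listed there, or 4.31%. The table lists regions up to an FDR of 0.05, and the highest FDR among the 916 was 0.0498. A region whose LSD1i level exceeded its Vehicle level is called opened, and one with the reverse order closed. By this definition 151 regions were opened and 765 were closed.

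The cells were granulocyte-monocyte progenitors from the bone marrow of C57BL6 mice, held in an immature state by a fusion of the estrogen receptor and HOXA9 (ER-HOXA9). All groups carried the fusion and were grown with stem cell factor and beta-estradiol, which keeps the fusion active. The 12 ATAC-seq libraries formed 6 groups of 2 biological replicates. Combo cells received 200 nM GSK-LSD1, 5 uM mercaptopurine (a purine analogue) and 5 uM cerulenin (a fatty acid synthase inhibitor) together. LSD1i cells received 200 nM GSK-LSD1 alone, 6MP cells 5 uM mercaptopurine alone, CER cells 5 uM cerulenin alone, and Vehicle cells DMSO. These 5 groups were taken on day 2, and Day0 cells were taken untreated at the start. Replicates were called biological by the submitters, and nothing further says whether they came from separate animals.

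LSD1 removes methyl groups from histone H3 tails and is brought to enhancers and promoters by repressors such as GFI1, within the CoREST complex. ATAC-seq marks where a transposase can reach DNA, so a peak in an exon or a UTR says that the stretch is accessible, not that its gene is transcribed. Such peaks can be enhancers that overlap coding sequence, internal or alternative starts, or the edges of neighbouring elements.

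Each library listed 42651 to 56398 peaks. The lowest background, taken as depth, was 2.44 to 4.55 fragments per position, and median signal over background at regions called in all 12 libraries was 28.3 to 42.7 in 10 libraries, 23.0 in CER replicate 2 and 16.9 in 6MP replicate 1. Promoters of 7 of 9 progenitor markers with a RefSeq promoter window held a peak in every library (Kit, Cd34, Fcgr3, Cebpa, Mpo, Ctsg and Csf3r), whereas Elane and Prtn3 held none in any. None of 6 T and NK cell marker promoters and none of 3 stromal and endothelial ones held a peak in any library. Some markers of other lineages held a peak in all 12 libraries, namely 3 of 4 megakaryocyte markers (Pf4, Itga2b, Gp9), 1 of 5 erythroid (Epor), 1 of 5 mast cell, basophil and eosinophil (Mcpt8) and 1 of 3 B cell (Cd79a).

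Few of these regions coincided with a RefSeq start. That largely follows from the annotation, which calls a region less than 3000 bases from a start a promoter. RefSeq promoter windows, 250 bases before to 50 bases after a start, lay wholly within 9 of the 916 regions. All 9 were closed, as were 765 of the 916. The stretches below come from those windows (RefSeq, GRCm38.p6, plus strand, 5′ to 3′) and are those with a match to either of 2 motifs. Capitals mark GAGGAAG or its reverse complement, a core bound by the myeloid factor PU.1, or GGGGCGG or its reverse complement, a core bound by SP and KLF factors. GAGGAAG was found in 4 of the 9 regions and GGGGCGG in 2.
Gm38424 start in the Mrpl33 exon region, chr5:31647915-31647944: atacataccagaGAGGAAGaggaggtgaga
Gm29846 start in the Aldh3b1 5' UTR region, chr19:3923778-3923807: tttgttgtctcgGAGGAAGtggctcaggcc
Gm35768 start in the Itpr2 exon region, chr6:146170818-146170847: aacgagcaactgGAGGAAGaaacgaagttt
Gm51757 start in a Gm23573 exon region, chr10:5326846-5326875: tgatgacgtgtaCTTCCTCcgtgcttcccc
Gm29846 start in the Aldh3b1 5' UTR region, chr19:3923832-3923861: agctgacctcgtCCGCCCCtccttgaaggc
Ethe1 start in the Zfp575 5' UTR region, chr7:24593878-24593907: taaggctctggcGGGGCGGctgcagggctc
On both strands, GAGGAAG was present in 13.6% and GGGGCGG in 23.2% of 32851 RefSeq promoter windows of the same length, and no match to one overlapped a match to the other in the 9 regions. RUNX (TGTGGT, 16.8% of the windows) was found in 2 of the 9 regions, and 4 further motifs in 0 of them. These were TTGCNNAA for C/EBP (10.8% of the windows), TGANTCA for AP-1 (7.81%), AGATAA for GATA factors (11.2%) and AATCACNGC for GFI1 (0.92%). The folds of the 5 regions in the authors' deposited table were -1.41 for Mrpl33, -0.46 for Aldh3b1, -0.53 for Itpr2, -0.40 for the Gm23573 region and -0.60 for Zfp575. A closed exon region of Coro6 (-0.27 in the authors' deposited table) also spans a microRNA on chromosome 11, plus strand. Its 2 mature arms are given from RefSeq with the seed, bases 2 to 8, in capitals.
mmu-miR-12181-5p: uUGAGGGUgcauaaggacugga
mmu-miR-12181-3p: uCCAGGCCucuugcucucuca

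The first question was how exon and UTR regions compare with other classes under the LSD1 inhibitor. In the authors' deposited table, opened regions were 97 of 505 exon regions (19.2%), 6 of 42 5' UTR regions (14.3%) and 48 of 369 3' UTR regions (13.0%). Promoter regions were opened in 6.33% of 11862 cases, intron regions in 28.3% of 4161 and intergenic regions in 34.0% of 4062. Exons and UTRs thus stood between promoters and distal regions, at 16.5% opened against 16.6% for the whole table. From the ranks of p and FDR the authors tested 51629 regions, of which 6.81% were listed as opened and 34.3% as closed. These shares come from the comparison that chose the regions and are a description without a test.

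**Figure D1:**
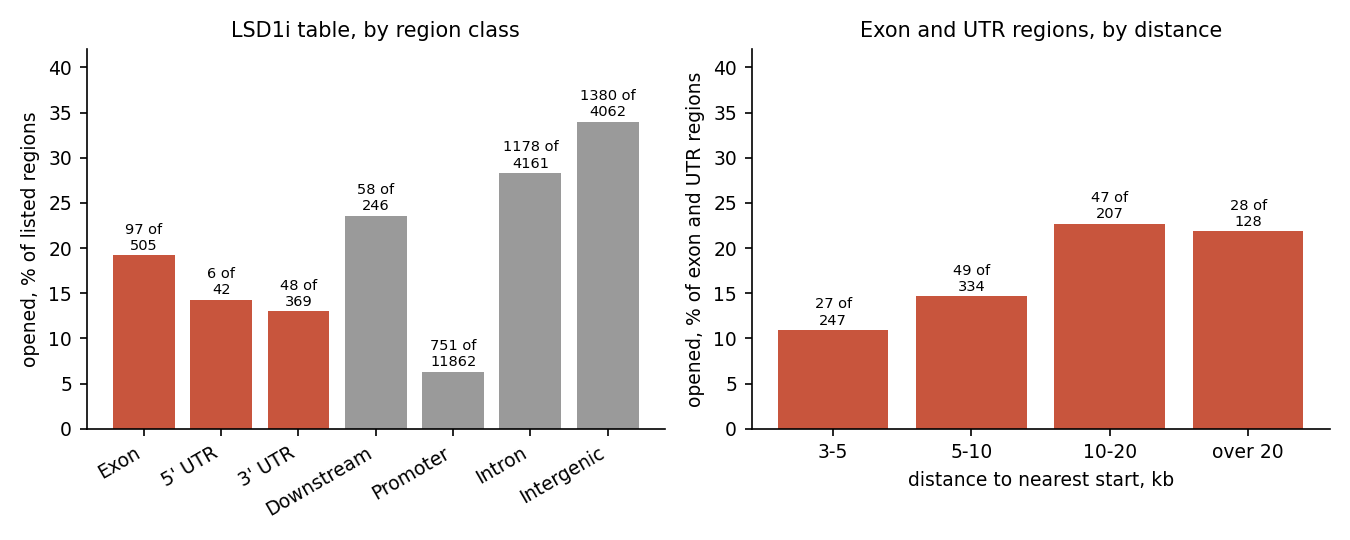
Share of listed regions that were opened in the LSD1i table, by annotated class (left, exon and UTR classes in red, others in grey) and, for the 916 exon and UTR regions, by distance in kb to the nearest annotated start (right). Bar labels give opened of listed regions, and the share was 10.9% within 5 kb of a start and 21.9% beyond 20 kb.

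In the authors' deposited table the median log2 fold was +0.79 over opened and -0.56 over closed regions, and the extremes were +3.83 and -2.18. A log2 fold of 1 or more was reached by 53 opened regions (35.1%) and one of -1 or less by 47 closed regions (6.14%). Median levels (log2 normalised reads) were 8.18 in LSD1i and 7.22 in Vehicle for opened regions, and 9.20 in LSD1i and 9.74 in Vehicle for closed ones. Opened regions were thus at low Vehicle levels, and they were narrower, with a median of 811 bases against 1130 bases for closed regions. In the whole table, the median widths were 794 bases opened and 1237 bases closed.

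By the distance in the authors' deposited table, all 916 regions lay at least 3005 bases from the start that its annotation assigns to them, with a median of 7546 and a maximum of 121026 bases. Regions less than 3000 bases from a start are called promoters there, so the minimum follows from how the classes were set. The opened share was 10.9% of 247 regions between 3000 and 5000 bases away, 14.7% of 334 between 5000 and 10000, 22.7% of 207 between 10000 and 20000, and 21.9% of 128 beyond. Among exon regions 390 were in an internal exon, 109 in the last exon and 6 in a single-exon transcript, and 0 in a first exon. The lack of first exons largely follows from the same rule. Opened shares were 18.5% for internal and 22.0% for last exons. In 184 of 505 exon regions the exon belonged to another gene than the one with the nearest start, so a gene name here is a position and not a target. The midpoints of 763 of the 916 regions fell within a RefSeq protein-coding gene span.

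The regions carried 869 different gene labels, of which 44 had at least 2 regions and 4 (Akap5, Gm23573, Ptk7 and Stk33) had one region opened and another closed. Akap5, which encodes an anchor of protein kinase A, had an opened region in its exon 2 of 2 (+0.30) and a closed 3' UTR region (-0.44) in the authors' deposited table. The closed region's midpoint lies in the RefSeq span of Mthfd1. Of the preset gene lists, the macrophage and dendritic cell list of 31 genes had 3 members here, Irf4, Cd83 and Msr1, all opened. The neutrophil list of 29 genes had 1 (Gfi1, opened), the progenitor list of 24 had 1 (Tal1, closed) and the list of 20 LSD1 complex genes had 0. Counted over every region class in the authors' deposited table, the same lists had 14 opened and 18 closed regions, 6 and 21, 3 and 42, and 3 and 27.

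Called peaks in the 12 libraries showed where opened regions were open. Of the 151 opened regions, 96.0% and 92.1% held a peak in the 2 Combo libraries and 100% in both LSD1i libraries. The shares were 49.7% and 57.0% in 6MP, 60.9% and 49.0% in CER, 63.6% and 66.9% in Vehicle, and 60.3% and 51.7% in Day0. All 4 libraries with the LSD1 inhibitor thus stood above all 8 without it, and the LSD1i and Vehicle libraries are those that chose the regions. The 765 closed regions held a peak in 94.1% and 94.6% of cases in Combo, 88.2% and 93.5% in LSD1i, 92.9% and 96.3% in 6MP, 97.1% and 92.0% in CER, 99.9% and 100% in Vehicle, and 97.9% and 93.3% in Day0. The Combo values lay within the range of the 6MP, CER and Day0 libraries. A peak in every library was held by 55 opened and 633 closed regions, and by 33367 of all 73147 union regions. Libraries also differed in the peaks called, 50733 to 56398 in the 4 with the inhibitor and 42651 to 53839 in the other 8. How far this moved the shares was not tested.

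**Figure D2:**
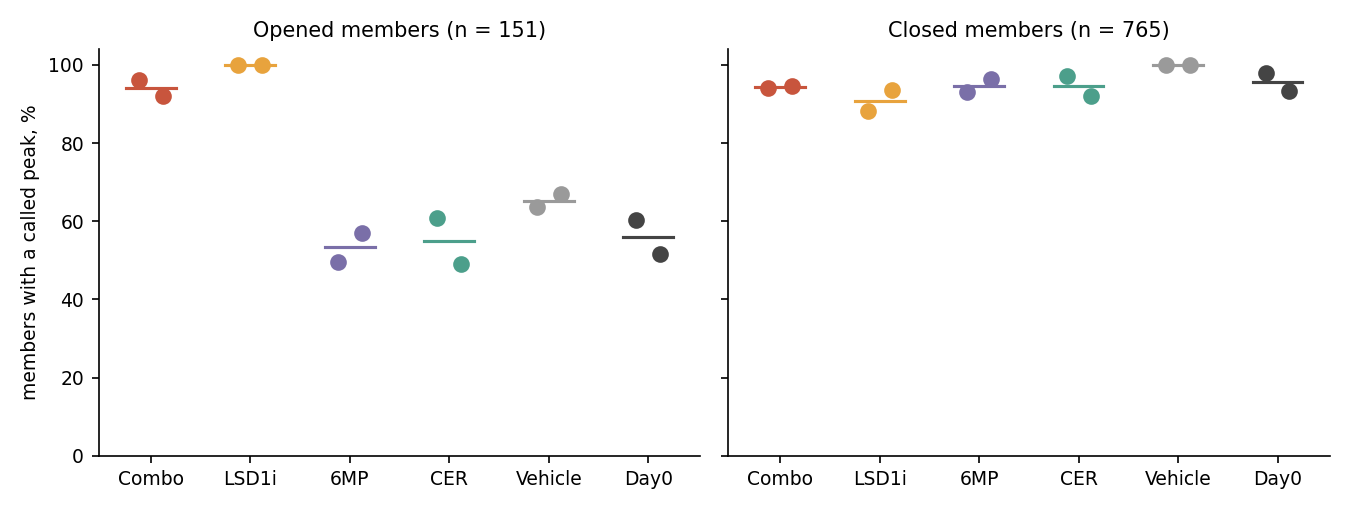
Share of the 151 opened (left) and 765 closed (right) exon and UTR regions that overlap a called peak, in percent, by group. Points are the 2 libraries of a group and bars their mean, and opened regions stand at 92.1% or above in Combo and LSD1i and at 66.9% or below in the other groups.

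In 43 opened regions neither Vehicle library had a peak, and in 33 none of the 8 libraries without the inhibitor had one. Both Combo libraries had a peak in 24 of those 33. These 24 comprised 15 exon, 1 5' UTR and 8 3' UTR regions, with 14 to 161 fragments at the summit in the LSD1i and Combo libraries, and 23 of them were also listed as opened in the authors' deposited Combo table. All 12 libraries define them, since the lack of a peak in the 8 without the inhibitor was part of the choice. They are therefore a description. The largest was exon 2 of 2 of Cav3, a muscle caveolin (chr6:112471294-112472384, mm10). Its summit pileup, the fragments stacked at the peak's highest point, was 154 and 153 in Combo and 119 and 161 in LSD1i, and no peak was called in the 6MP, CER, Vehicle or Day0 libraries. The authors' deposited tables gave Cav3 +4.00 in Combo (FDR 2.11e-55) and +3.83 in LSD1i (FDR 4.94e-68).

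The 3' UTR region of Ccdc25 (chr14:65864285-65865640) had 81 and 83 fragments in Combo, 54 and 71 in LSD1i and no called peak elsewhere. Otulin, a deubiquitinase of linear ubiquitin chains, had a 3' UTR region (chr15:27615819-27616670) with 116 and 109 fragments in Combo, 81 and 106 in LSD1i and none called elsewhere. Both regions thus have the pattern that defines the 24, a called peak in all 4 libraries with the inhibitor and in 0 of 8 without it. Weaker members of the same pattern were exon 5 of 15 of Sgpl1, the sphingosine phosphate lyase (56 and 52 in Combo, 30 and 61 in LSD1i). Exon 22 of 28 of Cep152, a centriole protein, had 31 and 25 fragments in Combo and 17 and 20 in LSD1i. The exon regions of Edil3 (exon 2 of 2), Gm11551 (exon 3 of 3), Gm44993 and Stk36 (exon 23 of 27) and the 3' UTR regions of Fhdc1 and Glce, an epimerase of heparan sulfate synthesis, had 21 to 70 fragments in the same 4 libraries and no called peak in the other 8. Gm11551 is annotated as antisense, and its region lies in the RefSeq span of the homeobox gene Meox1. Summits this low sit close to the smallest pileup called in a library, 10 to 14 fragments, so a missing peak does not show that the stretch was closed. Counts of fragments cover counting error only, and whether PCR copies were removed is not given in the sources used here.

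Dusp22, a dual-specificity phosphatase, had an opened region in its exon 4 of 8 (chr13:30694873-30696588). Its summit held 189 and 194 fragments in Combo, 110 and 114 in LSD1i, none called and 25 in 6MP, 25 and 26 in CER, 17 and 25 in Vehicle, and 22 and 22 in Day0. The 4 libraries with the inhibitor did not overlap with the other 8. The LSD1i and Vehicle libraries chose the regions, so their part of any separation, here and at regions named below, largely followed from the choice. Regions named for a small p in Combo minus 6MP and CER were also picked for that difference. A 3' UTR region of its neighbour Irf4, a transcription factor of dendritic cells and some macrophages (chr13:30766622-30767378), had 80 and 106 fragments in Combo and 70 and 69 in LSD1i. The remaining libraries had none called and 23 in 6MP, 33 and 15 in CER, 27 and 35 in Vehicle, and none called and 17 in Day0. The same separation held for Irf4. The 3' UTR region of Cd83, a surface protein of mature dendritic cells (chr13:43802471-43803131), had 25 and 21 fragments in Combo and 29 and 33 in LSD1i and no called peak in the other 8 libraries.

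**Figure D3:**
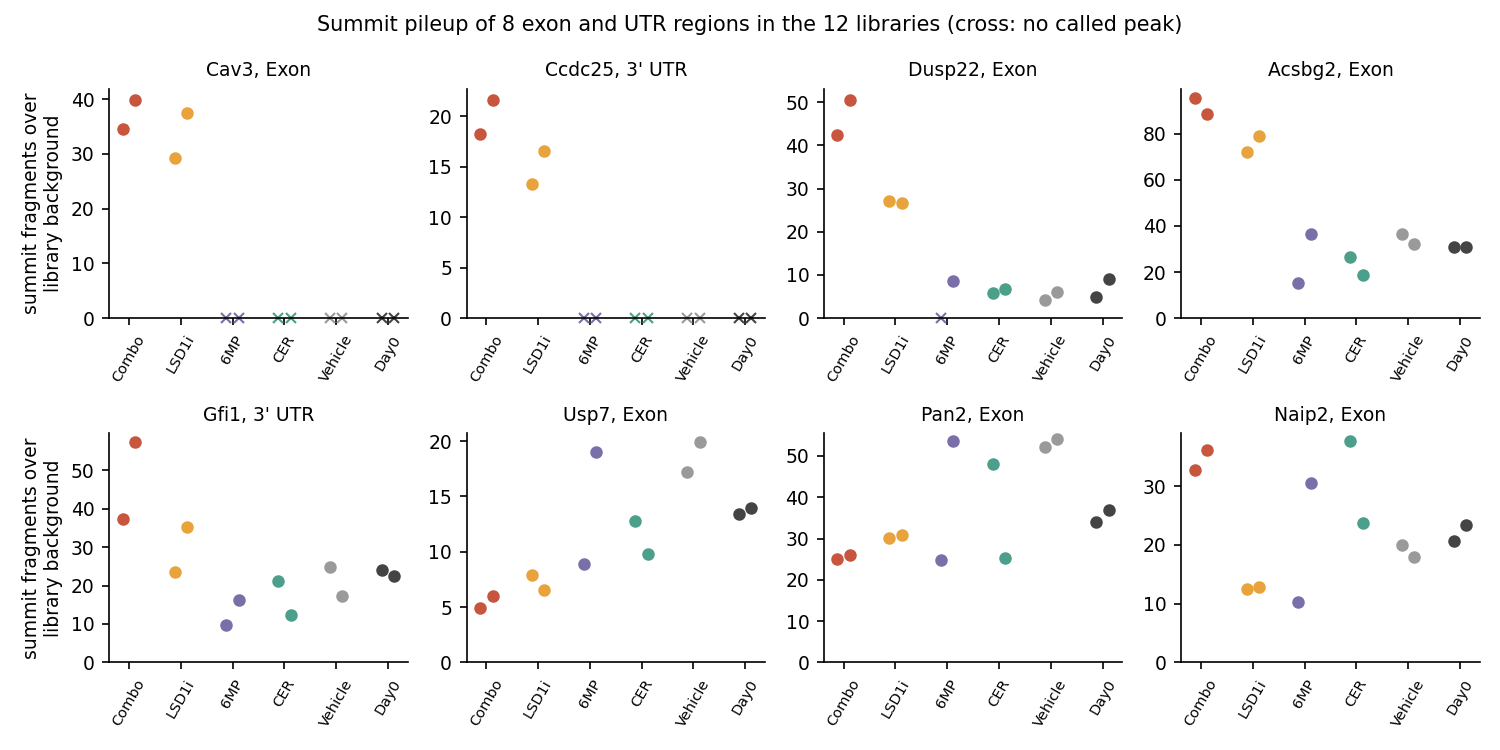
Summit pileup over library background (fragments at the summit divided by the library's smallest background, linear axis from 0) of 8 exon and UTR regions in the 12 libraries, 2 points per group, with a cross at 0 where no peak was called. Cav3 and Ccdc25 have peaks in Combo and LSD1i libraries and in no other, Usp7 and Pan2 are lower in LSD1i than in Vehicle, and Naip2 is higher in Combo than in LSD1i.

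The Combo group asks whether the same regions moved when the metabolic drugs were added. Of the 151 opened regions, the authors' deposited Combo table listed 106 as opened (70.2%), 0 as closed and 45 were not listed. Over all 53239 regions tested there, 12.8% were listed as opened and 2.15% as closed. The shares listed as opened were 77.0% for opened promoter regions, 80.9% for intron regions and 75.9% for intergenic regions. Of the 765 closed regions 102 were listed as closed (13.3%), 2 as opened (Naip2 and Pygl) and 661 were not listed. For closed promoter regions that share was 2.79%, for intron regions 11.4% and for intergenic regions 8.13%. Both tables use the same Vehicle libraries, so these counts are set side by side and not tested.

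Among the 106 regions opened in both tables the median fold was +1.26 in Combo and +0.87 in LSD1i, and 94 had the larger fold in Combo. The scaling of these folds is not given in the sources used here. On the log2 summit signal (fragment pileup over background, centred per library), the median of Combo minus LSD1i was -0.15 over the 138 opened regions with a peak in all 4 libraries, 46 of them above 0 and 92 below, against -0.04 over all regions. Among the 102 regions closed in both tables, the median fold in the authors' deposited tables was -0.77 in Combo and -0.86 in LSD1i. Of these, 41 had the larger absolute fold in Combo. The 45 opened regions not listed for Combo had a median LSD1i fold of +0.71, and the 661 closed ones of -0.53. By class, 62 of 97 opened exon regions (63.9%), 5 of 6 opened 5' UTR regions (83.3%) and 39 of 48 opened 3' UTR regions (81.2%) were also opened for Combo. The difference between exon and 3' UTR regions was not tested.

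Fragment pileup was also compared with limma on the log2 summit signal, the pileup over the library's smallest background, centred on each library's median. A region was tested when a peak was called in every library of the contrast, and p-values were adjusted by Benjamini-Hochberg over all regions tested. For LSD1i minus Vehicle, the comparison that chose the regions, limma called 4.00% of 41322 regions higher and 2.05% lower. There 59 of 89 opened regions tested were called higher and 62 of 665 closed regions tested were called lower, which describes the same contrast on another scale. For Combo minus Vehicle it called 4.97% of 42677 regions higher and 3.11% lower. There 50 of 89 opened regions tested were called higher, while 118 of 705 closed regions tested were called lower and 3 higher (Gsr, Naip2 and Pygl, named after their values were seen). With scaling by depth alone the counts were 6 opened higher and 4 closed lower in LSD1i minus Vehicle, and 35 opened higher, 4 closed lower and 0 closed higher in Combo minus Vehicle. In each of these contrasts 62 opened regions lacked a peak in at least one library and were not tested.

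No library of Combo minus the mean of 6MP and CER had chosen the regions. In that contrast, which sets the LSD1 inhibitor together with both metabolic drugs against each metabolic drug alone, limma called 5.26% of 35014 regions higher and 5.62% lower (9110 at an unadjusted p under 0.05). Among opened regions 38 of 59 tested were called higher and 0 lower (49 higher and 0 lower at an unadjusted p under 0.05), with a median difference of +0.76. The other 92 opened regions lacked a peak in at least 1 of the 6 libraries and were not tested, so the 59 are those already open in 6MP and CER cells. Among closed regions 117 of 662 tested were called lower and 1 higher, a Cd47 5' UTR region, with a median of -0.23. The median over all 35014 regions was -0.11. By class the calls among opened regions were 24 of 38 exon, 1 of 2 5' UTR and 13 of 19 3' UTR regions tested. Among closed regions they were 63 lower of 357 exon, 4 of 31 5' UTR and 50 of 274 3' UTR regions.

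The split depended on the scaling. With signal scaled by depth alone, without centring, the median over all regions was +0.49 in Combo minus 6MP and CER. Then 49 of 59 opened regions were called higher (median +1.36), whereas 1 closed region was called lower and 6 higher (median +0.37). On that scaling limma called 3797 regions higher and 7 lower over all regions. The low signal over background of 6MP replicate 1 and CER replicate 2 moves with this shift, and its part was not tested. Calls among opened regions numbered 24 without Combo replicate 1, and those among closed regions 28 without Combo replicate 1, 29 without Combo replicate 2 and 183 without 6MP replicate 1.

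**Figure D4:**
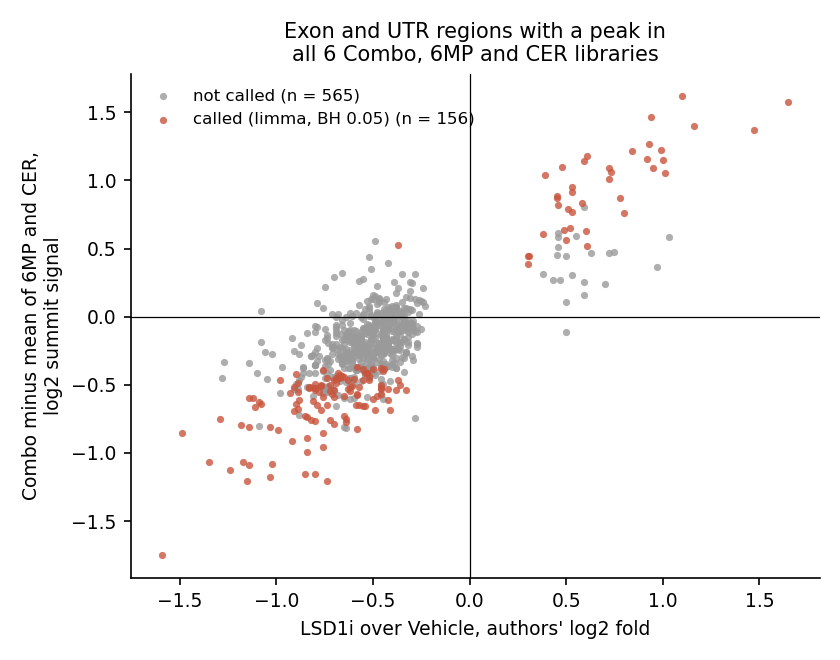
Difference in log2 summit signal between Combo and the mean of 6MP and CER (vertical) against the authors' log2 fold of LSD1i over Vehicle (horizontal) for the 721 exon and UTR regions with a peak in all 6 Combo, 6MP and CER libraries. Red points were called by limma, 38 of 59 opened regions above 0 and 117 of 662 closed regions below 0, with 1 closed region called above 0.

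Of named regions tested, Combo rose over 6MP and CER with the smallest p at exon 6 of 15 of Acsbg2, an acyl-CoA synthetase (chr17:56861113-56861714). It had 425 and 341 fragments in Combo, 294 and 340 in LSD1i, 67 and 107 in 6MP, 117 and 73 in CER, 147 and 132 in Vehicle, and 141 and 75 in Day0. The 4 libraries with the inhibitor held at least 2 times the fragments of any other. Combo exceeded 6MP and CER by 1.40 ± 0.13 on the log2 summit signal (SE, n = 2 Combo and 4 others; limma adjusted p = 4.89e-09).

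Slc13a3, a sodium-coupled dicarboxylate transporter, had a 3' UTR region (chr2:165404938-165405705) with 306 and 281 fragments in Combo and 164 and 203 in LSD1i. It had 65 and 68 in 6MP, 83 and 49 in CER, 84 and 97 in Vehicle, and 66 and 44 in Day0, and the 4 libraries with the inhibitor were again the highest. Combo rose over 6MP and CER by 1.47 ± 0.15 (limma adjusted p = 2.98e-08). Babam2, a subunit of the BRISC and BRCA1-A deubiquitinase complexes, had a 3' UTR region (chr5:31766530-31768074) with 444 and 462 fragments in Combo and 253 and 357 in LSD1i. The other libraries ranged from 99 in 6MP to 158 in Vehicle, and the rise was 1.23 ± 0.13 (limma adjusted p = 1.01e-07). A 3' UTR region labelled Gm42881, whose midpoint lies in the span of the sulfate-donor synthase gene Papss1, had 174 and 149 fragments in Combo, 122 and 137 in LSD1i and 26 to 44 in the other 8. Its rise was 1.62 ± 0.19 (limma adjusted p = 4.16e-07).

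An opened region labelled Cxcl3, a chemokine that attracts neutrophils, was annotated to a single-exon transcript (chr5:90789124-90790633). It had 677 and 770 fragments in Combo and 418 and 486 in LSD1i, against 144 and 215 in 6MP, 319 and 239 in CER, 310 and 235 in Vehicle, and 271 and 184 in Day0. Combo exceeded 6MP and CER by 1.01 ± 0.14 (limma adjusted p = 6.01e-06). Exon 5 of 10 of Msr1, the macrophage scavenger receptor (chr8:39619032-39620654), had 94 and 94 fragments in Combo, 84 and 73 in LSD1i, 18 and 28 in 6MP, 25 and 26 in CER, 42 and 45 in Vehicle, and 23 and 22 in Day0. Its rise over 6MP and CER was 1.27 ± 0.24 (limma adjusted p = 0.0007), with no overlap between the 4 libraries with the inhibitor and the rest. Over Vehicle the Msr1 differences were smaller, 0.87 in Combo and 0.96 in LSD1i. That of Combo was not called, except when centring followed the signal intensity. The LSD1i call was lost with scaling by depth and with missing peaks at the smallest pileup.

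Gfi1 encodes the repressor that brings LSD1 to its targets. Its 3' UTR region (chr5:107717429-107718582) had 166 and 220 fragments in Combo, 96 and 151 in LSD1i, 42 and 48 in 6MP, 93 and 48 in CER, 100 and 71 in Vehicle, and 109 and 55 in Day0. In fragments both Combo libraries were above all others, while LSD1i overlapped with Vehicle and Day0. On the centred signal Combo replicate 1 was below LSD1i replicate 2. The rise of Combo over 6MP and CER was 1.10 ± 0.18 (limma adjusted p = 6.35e-05), and with Day0 as the only reference the difference was 0.56 (adjusted p = 0.0599). The authors' deposited tables listed it at +1.08 for Combo and +0.48 for LSD1i.

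Of the 6 opened 5' UTR regions, those of Il31ra, a cytokine receptor (+1.24), and Lpin1, a phosphatidate phosphatase (+1.18), had the highest folds in the authors' deposited LSD1i table. Lpin1 had 57 and 57 fragments in Combo, 53 and 54 in LSD1i, none called and 24 in 6MP, 23 and 21 in CER, 21 and 23 in Vehicle, and 32 and 12 in Day0. The inhibitor libraries stood above the rest.

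Closed regions differed by less, and most still held a peak. The strongest call was exon 3 of 32 of Usp7, a deubiquitinase that acts on MDM2 and p53 (chr16:8715610-8716359). It had 22 and 23 fragments in Combo, 32 and 28 in LSD1i, 39 and 56 in 6MP, 56 and 38 in CER, 69 and 82 in Vehicle, and 61 and 34 in Day0. The 4 libraries with the inhibitor were below the other 8. Combo fell below 6MP and CER by 1.75 ± 0.21 (limma adjusted p = 9.83e-07), and the call held with scaling by depth (-1.15, adjusted p = 0.00572).

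Exon 7 of 26 of Pan2, a subunit of the poly(A) nuclease (chr10:128309779-128311045), had 111 and 100 fragments in Combo, 123 and 132 in LSD1i, 108 and 158 in 6MP, 211 and 98 in CER, 210 and 222 in Vehicle, and 155 and 90 in Day0. Before centring, Combo overlapped with 6MP, CER and Day0 in fragments and was below both Vehicle libraries. On the centred signal Combo was lower than 6MP and CER by -1.08 ± 0.13 (limma adjusted p = 1.09e-06). Exon 13 of 17 of Cttn, which encodes the actin-binding protein cortactin (chr7:144441586-144442204), had 63 and 73 fragments in Combo, 50 and 70 in LSD1i, 85 and 122 in 6MP, 100 and 72 in CER, 106 and 106 in Vehicle, and 118 and 76 in Day0. Its difference was -1.16 ± 0.15 (limma adjusted p = 4.44e-06).

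An exon region of Asb2, a ubiquitin ligase subunit of haematopoietic cells, differed between Combo and 6MP and CER by -0.77 ± 0.13 (limma adjusted p = 8.86e-05), and a 5' UTR region of Ypel2 by -0.81 ± 0.13 (adjusted p = 0.000105). With scaling by depth the differences at Pan2, Cttn, Asb2 and Ypel2 were -0.49, -0.56, -0.17 and -0.21, and none of the 4 was called (adjusted p = 0.28 to 0.711).

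Among closed regions without a peak in every library, the 3' UTR region of Mgme1, a mitochondrial nuclease (chr2:144279766-144280328), had none called in Combo, none called and 21 fragments in LSD1i, 31 and 44 in 6MP, 40 and none called in CER, 73 and 72 in Vehicle, and 80 and none called in Day0. Exon 10 of 17 of Cdk17, a cyclin-dependent kinase (chr10:93227925-93229489), had 37 and 29 fragments in Combo, 16 and 28 in LSD1i, 25 and 32 in 6MP, 30 and none called in CER, 51 and 85 in Vehicle, and 34 and 11 in Day0. Both Vehicle libraries were above all others. The 5' UTR region of Rita1, which binds the Notch effector RBPJ (chr5:120599360-120600429), had 52 and 61 fragments in Combo, 45 and 61 in LSD1i, 53 and 54 in 6MP, 71 and 31 in CER, 87 and 128 in Vehicle, and 87 and 43 in Day0. In fragments Vehicle again stood highest or level with the highest. On the centred signal Combo minus 6MP and CER was -0.53 ± 0.20 (limma adjusted p = 0.0786). Scaled by depth the Rita1 difference was 0.06. The 5' UTR region of Pfkm, the muscle phosphofructokinase of glycolysis (chr15:98111705-98112150), holds the RefSeq start of Pfkm itself. It had 59 fragments and none called in Combo, 41 and none called in LSD1i, 24 and none called in 6MP, 61 and 41 in CER, 65 and 93 in Vehicle, and none called and 36 in Day0, so replicates of 4 groups differed in whether a peak was called.

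Peaks disappeared in few closed regions. Neither LSD1i library had a peak in 41 of 765, neither Combo library in 27, and none of these 4 in 17. One of the 17 was exon 6 of 12 of Nrf1, the nuclear respiratory factor (chr6:30101950-30102531), at -2.20 for Combo and -1.96 for LSD1i in the authors' deposited tables. It had 21 and 40 fragments in Vehicle and 22 in 6MP replicate 2, and no called peak in the other 9 libraries, including both Day0 ones. The region was thus without a called peak in Day0 and CER cells as well. The 3' UTR region of Arhgef17 (chr7:100871498-100872182), had no peak in Combo or LSD1i, none called and 31 fragments in 6MP, 48 and none called in CER, 59 and 39 in Vehicle, and 55 and 27 in Day0. The 3' UTR region with the most negative LSD1i fold in the authors' deposited table was that of Arhgap33 (-1.58 in the authors' deposited Combo table and -2.18 in the LSD1i one). It had 26 fragments and none called in Combo, none called in LSD1i, 30 and 29 in 6MP, 39 and 24 in CER, 38 and 77 in Vehicle, and 39 and 18 in Day0.

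Other closed regions had peaks in Combo. Exon 31 of 56 of Acaca, the acetyl-CoA carboxylase that starts fatty acid synthesis (chr11:84292626-84292967), had 26 and 33 fragments in Combo and no called peak in LSD1i. It had none called in 6MP, 18 and 17 in CER, 13 and 25 in Vehicle, and 20 and none called in Day0. Combo minus Vehicle was 0.45 ± 0.34 there (limma adjusted p = 0.482). The 5' UTR region of Tal1, a progenitor transcription factor (chr4:115062643-115064173), had 390 and 436 fragments in Combo, 309 and 288 in LSD1i, 172 and 297 in 6MP, 406 and 229 in CER, 368 and 325 in Vehicle, and 402 and 213 in Day0. In fragments, before centring, both LSD1i libraries were below and both Combo libraries above the 2 Vehicle libraries. On the centred signal the LSD1i, Combo and Vehicle libraries overlapped. Combo minus 6MP and CER was -0.05 ± 0.13 on that signal (limma adjusted p = 0.829).

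Set directly against LSD1i, few regions of the genome were called in Combo, which with 2 libraries per group does not show that they were alike. With limma 0.0893% of 43669 regions were called higher and 0.0229% lower in Combo minus LSD1i. At an unadjusted p under 0.05 there were 4728 regions. Other scalings were not run for this contrast. Among opened regions 0 of 138 tested were called (8 higher and 17 lower at an unadjusted p under 0.05), and among closed ones 1 of 654 was called higher (40 higher and 34 lower unadjusted). The LSD1i libraries also chose the regions, so this contrast was not independent of the choice.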

How the data were processed

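ATAC-seq reads were processed on mm10 with DiffBind, MACS2 2.1.2, Picard 2.18.26, SAMtools 1.9, Bowtie2 and Trimmomatic 0.38, as the submitters' processing notes list them, and their settings are not given in the sources used here. The authors deposited, per library, peak lists with a score, a fold ratio over background and -log10 p-values and q-values, and annotated comparison tables with log2 levels, folds, p-values and FDRs. The levels' scaling is not given in the sources used here.

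Fragment pileups were recovered by solving the deposited fold ratio and p-value of each summit (all whole within 0.001 on the -log10 scale). Peaks were joined into 73147 union regions. Summit signal was the log2 of pileup over the library's smallest background, centred on its median over 33367 regions called in all 12 libraries. The 6 group means were fitted in limma 3.58.1 (R 4.3.3) with a variance prior that follows the mean signal, which pools the spread since groups have n = 2, and adjusted by Benjamini-Hochberg at 0.05. The fit and the recovery were checked on simulated data. Tables were made in Python 3.11.15. A p here measures the spread between libraries of a group, which may be technical.

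Members, lists and tests were chosen with earlier results of these data known. The 38 named regions are those with the highest absolute LSD1i folds by class and direction, the 5 smallest p in each direction of Combo minus 6MP and CER, and list genes past the threshold there or with an absolute fold of 1 or more. Akap5, Tal1, Naip2, Pygl, Gsr and Cd47 and the start and microRNA regions were named outside that rule, after their values were seen. One region that the rule names is not reported here. The deposited 6MP, CER and Day0 comparison tables were not used.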

Additional observations from a re-analysis of the deposited data

Results flagged for a closer look

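Of the closed regions, 2 were listed in opposite directions in the authors' deposited tables. Exon 4 of 15 of Naip2, an inflammasome sensor (chr13:100183026-100184259), stood at 0.73 for Combo (FDR 0.0026) and at -0.55 for LSD1i (FDR 0.00444). It had 146 and 139 fragments in Combo, 51 and 55 in LSD1i, 45 and 90 in 6MP, 165 and 92 in CER, 80 and 74 in Vehicle, and 94 and 57 in Day0. Combo minus LSD1i on the log2 summit signal, added after seeing the data, was 1.07 ± 0.19 (SE, n = 2 each). It is a description, since the region was picked for this difference, and the difference was not tested in other libraries. The mouse Naip genes are near-identical copies, and how reads were shared among them is not given in the sources used here, so the value is uncertain.

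Exon 3 of 20 of Pygl, the liver glycogen phosphorylase (chr12:70218806-70219858), stood at 0.59 for Combo (FDR 0.0199) and at -0.37 for LSD1i (FDR 0.0208). It had 256 and 268 fragments in Combo, 127 and 148 in LSD1i, 102 and 156 in 6MP, 182 and 128 in CER, 140 and 161 in Vehicle, and 152 and 96 in Day0. Combo minus LSD1i was 0.57 ± 0.14, likewise a description.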

How the results depend on the processing

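Over all regions limma called 2501 in LSD1i minus Vehicle, 3445 in Combo minus Vehicle and 3810 in Combo minus 6MP and CER. At a threshold of 0.01 these were 1082, 1662 and 1606, opened regions called higher in LSD1i minus Vehicle 35, and closed regions called lower 22, 54 and 43. Scaling by depth gave 200 calls in LSD1i minus Vehicle (6 opened higher, 4 closed lower) and 1235 in Combo minus Vehicle (4 closed lower), and 1 closed region lower in Combo minus 6MP and CER, where Rita1 turned from -0.53 to 0.0631. It moved the median of all regions from -0.04 to -0.19, from -0.09 to 0.13 and from -0.11 to 0.49. With missing peaks at the smallest pileup, opened regions called in Combo minus 6MP and CER were 58 and closed ones 77. CER alone as the reference gave 76 closed regions, and 6MP alone 2263 calls in all. Using 6MP replicate 2 and CER replicate 1 only, added after seeing the data, gave 7633. Leaving out one library gave 646 (without LSD1i replicate 1) to 3416 calls, 22 to 52 opened and 13 to 56 closed in LSD1i minus Vehicle. It gave 1343 to 2931 calls, 29 to 51 opened and 42 to 83 closed in Combo minus Vehicle. It gave 1006 (without Combo replicate 1) to 10136 (without 6MP replicate 1) calls, 24 to 47 opened and 28 to 183 closed in Combo minus 6MP and CER. Opened regions in the authors' deposited table numbered 96 at an FDR up to 0.01, and 52 closed ones were at that FDR in both tables. An absolute log2 fold of 1 left 53 opened and 47 closed. Replicate numbers did not pair the libraries (15 group pairs, r from -0.34 to 0.25, 3 above 0.1). With a replicate block opened and closed calls were 58 and 57, 50 and 114, and 37 and 113. Of 500 single-region alternatives 430 kept their direction and side of the threshold, 63 lost a call, 6 gained one and 1 reversed. The RefSeq class at the midpoint and base composition or motifs around region centres were not run, since no genome was used here. The cause of these changes was not tested. Depth limits weak summits.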
